A study of Mus musculus with 5 samples.

Results

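The Cyp1, Cyp2 and Cyp3 cytochromes P450 were followed in liver RNA of neonatal mice. Members were all genes whose deposited symbol carries a Cyp1, Cyp2 or Cyp3 subfamily letter and number, without Cyp2c70 and without pseudogenes, and 58 of the 36401 genes in the files met this rule. They fall into 3 Cyp1, 46 Cyp2 and 9 Cyp3 genes. The livers came from BALB/C pups on day 10 of life, and total RNA isolated from snap-frozen lobe 1 was used for sequencing libraries. The labels separate 2 Mdr2+/+ libraries (wild-type) from 3 Mdr2+/- libraries (heterozygous), which carry a null allele of Mdr2. Mdr2, now named Abcb4, is the canalicular transporter that carries phosphatidylcholine into bile. A heterozygous library also differed from all others in sex-linked expression, as given below, and the labels state no sex. The groups therefore cannot be said to differ in this allele alone. The null allele had been backcrossed from Mdr2-/- mice into BALB/c, and pups of both genotypes were kept as littermates. Nothing in the labels states that the libraries come from different animals, and p-values then reflect only the spread among these samples, which may in part be technical.

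Cytochromes P450 are heme enzymes of the endoplasmic reticulum that insert an oxygen atom into lipophilic substrates, with electrons supplied by the reductase Por. Families 1 to 3 hold the enzymes of drug and toxin metabolism, and several also act on steroids, retinoids and polyunsaturated fatty acids. In hepatocytes their genes are controlled by nuclear receptors such as Nr1i2 (PXR) and Nr1i3 (CAR), by the aryl hydrocarbon receptor Ahr and, in older mice, by sex-dependent growth hormone signalling. Many are zoned along the lobule and rise or fall as the liver matures after birth. Mouse subfamilies have expanded into clusters of tandem copies, so that neighbouring genes can be nearly identical in sequence.

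How similar the copies are bears on how far their counts can be told apart. The following stretches of 60 coding bases surround the codon of the heme-binding cysteine, taken from GENCODE M21 transcripts, and show a pair of groups of Cyp2c genes whose fold changes had opposite signs. Capitals mark bases that differ from the first sequence of each group.
Cyp2c37: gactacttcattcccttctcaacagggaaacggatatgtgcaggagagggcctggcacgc
Cyp2c50: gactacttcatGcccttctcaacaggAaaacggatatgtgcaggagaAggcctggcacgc
Cyp2c54: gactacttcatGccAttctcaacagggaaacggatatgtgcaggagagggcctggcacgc
Cyp2c40: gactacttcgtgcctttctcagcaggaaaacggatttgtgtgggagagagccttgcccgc
Cyp2c67: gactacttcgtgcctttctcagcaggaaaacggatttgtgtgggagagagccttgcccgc
Cyp2c68: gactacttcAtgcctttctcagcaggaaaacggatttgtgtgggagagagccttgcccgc
Cyp2c69: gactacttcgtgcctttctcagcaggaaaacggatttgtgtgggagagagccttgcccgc
Within this stretch Cyp2c50 and Cyp2c54 differed from Cyp2c37 at 3 and 2 bases, and Cyp2c67, Cyp2c68 and Cyp2c69 differed from Cyp2c40 at 0, 1 and 0 bases. Between the groups, Cyp2c40 differed from Cyp2c37 at 11 of the 60 bases. Over the whole coding sequence Cyp2c37 was 96.1% identical to Cyp2c50 and 95.1% to Cyp2c54, and 74.6% identical to Cyp2c40. The Cyp2c40 transcript used had 1560 coding bases against 1470 for Cyp2c37, and gaps were counted as differences, which lowers that value. Cyp2c67, Cyp2c68 and Cyp2c69 were 79.1%, 78.9% and 78.6% identical to Cyp2c37. The protein signature around the cysteine was found in 56 of the 58 members, searched in the longest protein-coding transcript of each. Cyp2s1 and Cyp3a59 had no exact match in the transcript used, and their other transcripts were not searched.

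Sharing was also measured as the percentage of a transcript's 50-base windows that occur unchanged in a transcript of another gene. It was 98.6% for Cyp3a41a and 93.5% for Cyp3a41b, which are practically a single locus for counting. It was 72.1% for Cyp2c40, 54.8% for Cyp2c69, 52.8% for Cyp2c67 and 43.3% for Cyp2c68. Cyp2c37 (30.1%), Cyp2c50 (30.7%), Cyp2c54 (25.7%), Cyp2a12 (27.5%) and Cyp2a22 (25.7%) shared less, nearly all of it within their own group. Cyp2f2 and Cyp2c44 shared 0 windows, and Cyp2j5 (0.174%) and Cyp1a2 (4.97%) almost none. In all, 23 of the 58 members shared more than 20%, and their individual counts are uncertain. Levels of similar genes are therefore also given as sums.

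Each library held 11944157 to 17312851 estimated counts, and the members together took 1.12 to 1.28% of them. Levels are in normalised CPM, counts relative to library depth after TMM scaling, and groups are given as mean ± SD (n = 2 wild-type, n = 3 heterozygous). Fold changes are given as log2FC, positive where heterozygous libraries were higher, and adjusted p-values are from the quasi-likelihood test of edgeR over all 13959 tested genes. A value of 3 counts, the floor for detection, was 0.174 to 0.252 CPM, for counting error only. The targeted gene, Abcb4, matched the labels, with 162 CPM in both wild-type libraries and 100.6, 97.7 and 92.6 CPM in the heterozygous libraries (log2FC -0.74, adjusted p = 0.000336). A heterozygous library stood apart on sex-linked genes: replicate 1 had 11.3 CPM of Xist and 79.6 CPM of the Y-linked Ddx3y, where the other libraries had 286 to 426 CPM and 0.0506 to 2.27 CPM. It was therefore not a repeat library of the same RNA as another in its group. For scale, 6.63% of all tested genes were called higher and 5.41% lower. Among markers of other cells, 12 of 14 neutrophil and myeloid genes rose. Their summed level was 131 to 183 CPM in wild-type and 389 to 497 CPM in heterozygous libraries. Erythroid genes fell in 8 of 10 (2902 to 3618 and 1727 to 1929.5 CPM). Of 10 B cell genes 9 rose (13.8 to 20.97 and 44.7 to 53.5 CPM). Of 10 Kupffer cell genes 3 fell (466 to 680.4 and 476 to 551 CPM), as did 3 of 12 endothelial genes (467 to 485 and 441 to 478 CPM), and none rose in either list. Of 9 cholangiocyte genes 1 rose (158 to 171 and 167 to 170.3 CPM), as did 1 of 14 stellate and fibroblast genes (1371 to 1549 and 1575 to 1750.4 CPM), and none fell. Of 13 hepatocyte markers 1 rose and 2 fell, with summed levels of 218436 to 235768 CPM and 228034 to 245728 CPM. Their part in the results was not tested, and in whole tissue fewer cells of a type and less RNA per cell cannot be told apart.

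Of the 58 members, 47 had enough counts to be tested. In heterozygous livers 9 of them were higher and 2 lower. The test called 6.63% of all tested genes higher and 5.41% lower, or 12.0% in either direction, against 19.1%, 4.26% and 23.4% of the tested members. The genes that rose were Cyp2a12, Cyp2f2, Cyp2b10, Cyp2c69, Cyp2j5, Cyp2a22, Cyp2c40, Cyp1a2 and Cyp2d26, and those that fell were Cyp2c37 and Cyp2c44. None of the 11 had overlapping groups, and neither did 45.6% of the tested genes overall. A positive log2FC was found in 35 tested members and a negative one in 12, beside a median of -0.00245 over all tested genes. Of the 11 called members, 5 shared more than 20% of their windows with other genes, so the members are not all separate observations. All heterozygous libraries lay above both wild-type libraries in 19 members and below them in 3, against 22.9% and 22.7% of all tested genes. Scaling by library size alone turned the 925 higher and 755 lower calls over all genes into 704 and 936, and those of the members into 7 and 2. The median log2FC of tested members was 0.10, and that of all tested genes was -0.00245. Each subfamily is described in turn.

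**Figure D1:**
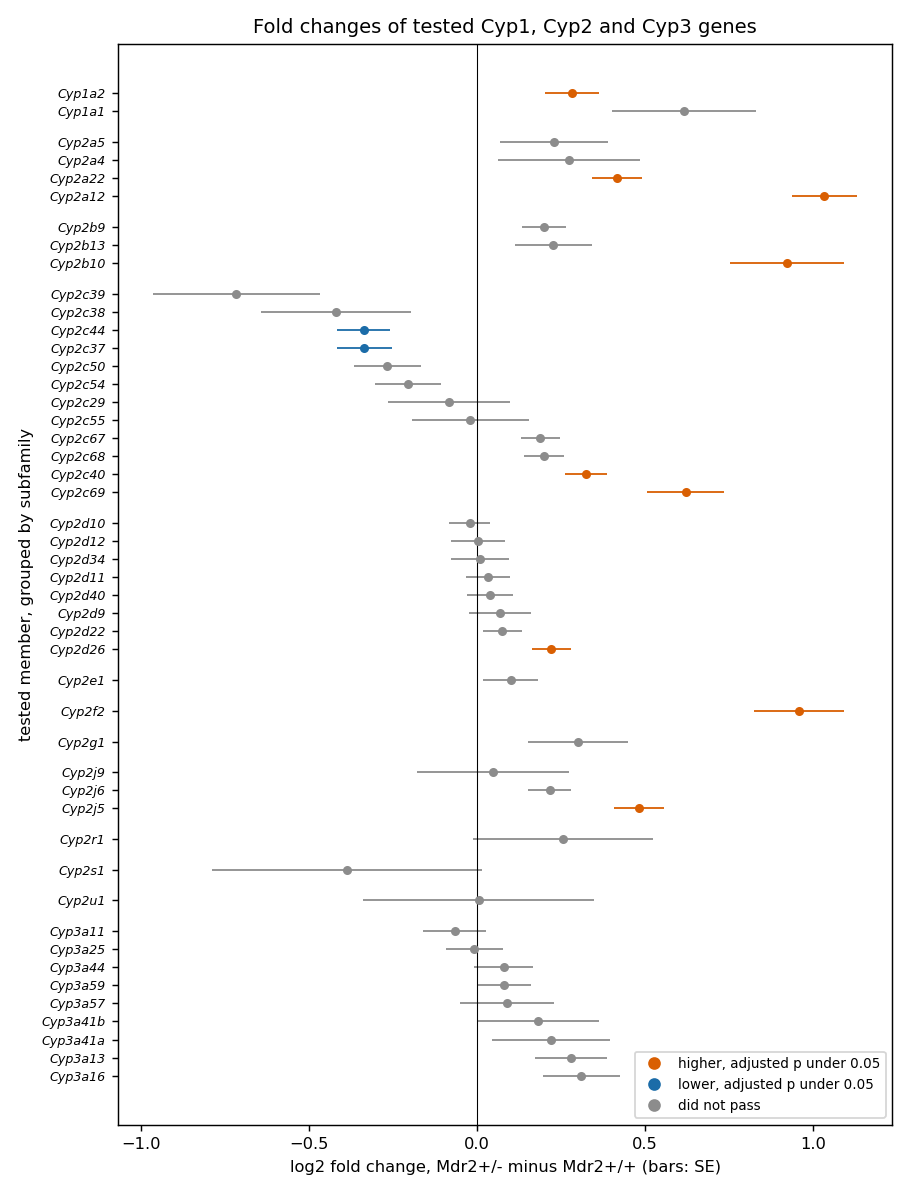
Log2 fold change (Mdr2+/- minus Mdr2+/+, x axis) with its SE for the 47 tested members, grouped by subfamily on the y axis; orange passed as higher, blue as lower and grey did not pass. The rises reach 1.03 (Cyp2a12), both genes that fell are in Cyp2c, and no Cyp3a gene is coloured.

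The members differed widely in abundance. Per kilobase of the longest transcript, Cyp2e1 ranked first among members with a mean of 2285 CPM per kb over the 5 libraries, followed by Cyp2d26 (645) and Cyp3a11 (605), then Cyp3a44 (289) and Cyp3a16 (214). The order of Cyp2d26 and Cyp3a11 was not the same in every library: Cyp3a11 ran from 538 to 666 CPM per kb and Cyp2d26 from 581 to 697. Their order also depends on the length used. Cyp3a11 was divided by 2802 bases, while its longest protein-coding transcript had 2344, and Cyp2d26 had 1700 for both. By CPM, Cyp3a11 held 14.3% of the members' total and Cyp2d26 9.26%. The 5 most abundant members by CPM held 66.9% of the members' total. The summed level of all members was 10831 and 11705 CPM in wild-type and 11589, 12859.9 and 12159 CPM in heterozygous libraries, a ratio of 1.08 with overlapping groups.

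The largest rise was in Cyp2a12, an abundant liver enzyme known as a steroid hydroxylase (ENSMUSG00000060407, chromosome 7, 27029081 to 27037375, plus strand, mm10). It stood at 173 and 140.1 CPM in the wild-type libraries and at 330.2, 298 and 335 CPM in the heterozygous libraries. All 3 heterozygous values lay far above both wild-type values. The means were 157 ± 23.5 and 321 ± 19.7 CPM, a 2.05-fold difference (log2FC 1.03, SE 0.10, adjusted p = 0.000555). The call held in each of the 13 alternative fits, with a log2FC of 0.89 to 1.19.

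Its close copy Cyp2a22 rose as well, from 137 and 144 CPM to 196, 173 and 192 CPM (log2FC 0.42, SE 0.07, adjusted p = 0.00826). Around the heme-binding cysteine the copies read as follows, with the bases of Cyp2a22 that differ from Cyp2a12 in capitals, to show what separates their reads.
Cyp2a12: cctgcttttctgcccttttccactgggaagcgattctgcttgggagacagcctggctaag
Cyp2a22: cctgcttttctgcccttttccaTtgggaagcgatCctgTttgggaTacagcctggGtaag
They differ at 5 of these 60 bases, and at 45 bases over the whole coding sequence, which leaves 97.0% identity. Their summed level was 310.2 and 284 CPM in wild-type and 527, 471 and 527 CPM in heterozygous libraries, a ratio of 1.71. Leaving out wild-type replicate 1 ended the Cyp2a22 call (adjusted p = 0.0600), and over all alternatives its adjusted p ranged from 0.000103 to 0.0600.

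The other pair of the subfamily, Cyp2a4 and Cyp2a5, includes the coumarin hydroxylase Cyp2a5 and the testosterone hydroxylase Cyp2a4. They were scarce at this age, at 2.10 to 2.79 CPM for Cyp2a4 and 5.12 to 6.83 CPM for Cyp2a5. Neither passed (log2FC 0.27 and 0.23, adjusted p = 0.458 and 0.394). The Cyp2a sum was 1.70 times the wild-type level in heterozygous livers, the highest ratio of any subfamily with several members.

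Cyp2f2, which in liver marks periportal hepatocytes and in lung club cells activates naphthalene, rose from 29.1 and 28.2 CPM to 60.8, 44.9 and 61.7 CPM (ENSMUSG00000052974, chromosome 7, 27119909 to 27133660, plus strand). The lowest heterozygous library, replicate 2, was still above both wild-type libraries. The ratio of means was 1.95 (log2FC 0.96, SE 0.13, adjusted p = 0.00296), and the call held in all 13 alternatives. Its exons overlap those of the antisense gene Gm15883 over 274 bases. Gm15883 had 40.7 and 36.9 counts in wild-type and 65.3, 66.7 and 95.1 counts in heterozygous libraries, not scaled to depth. It was thus higher in heterozygous libraries too, and the strand setting of the counting was not given.

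Cyp2b10, the classical target of the phenobarbital-responsive receptor Nr1i3, rose from 15.3 and 11.6 CPM to 30.7, 25.9 and 20.9 CPM (ENSMUSG00000030483, chromosome 7, 25897620 to 25926624, plus strand). It was 1.93 times as abundant in heterozygous livers (log2FC 0.92, SE 0.17, adjusted p = 0.00958). Wild-type replicate 2 had the lowest value, and without it the call was lost (log2FC 0.75, adjusted p = 0.0618). Cyp2b9 was far more abundant, at 113 and 112 CPM and 125, 137 and 125 CPM, and Cyp2b13 lay at 21.6 and 18.8 CPM and 22.4, 27.0 and 21.9 CPM. Both had heterozygous libraries above wild-type libraries without passing (log2FC 0.20 and 0.23, adjusted p = 0.0821 and 0.231). Cyp2b19 and Cyp2b23 had too few counts to test.

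These genes lie together on chromosome 7 (25802475 to 27158668), in a cluster of 13 members with Cyp2s1, Cyp2g1 and Cyp2t4. Of its 10 tested members 4 rose and 0 fell, against 6.63% and 5.41% of all tested genes. In 9 the log2FC was positive, and the median was 0.29. Copies such as Cyp2a12 and Cyp2a22 share reads, so these genes are not all separate observations. Cyp2g1, an olfactory P450, had 12.5 and 11.6 CPM in wild-type and 16.6, 12.05 and 16.2 CPM in heterozygous libraries, with heterozygous replicate 2 inside the wild-type range (log2FC 0.30, adjusted p = 0.221). Cyp2s1, an enzyme of epithelia outside the liver, was at 0.640 to 1.93 CPM and did not pass (log2FC -0.39, adjusted p = 0.576).

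**Figure D2:**
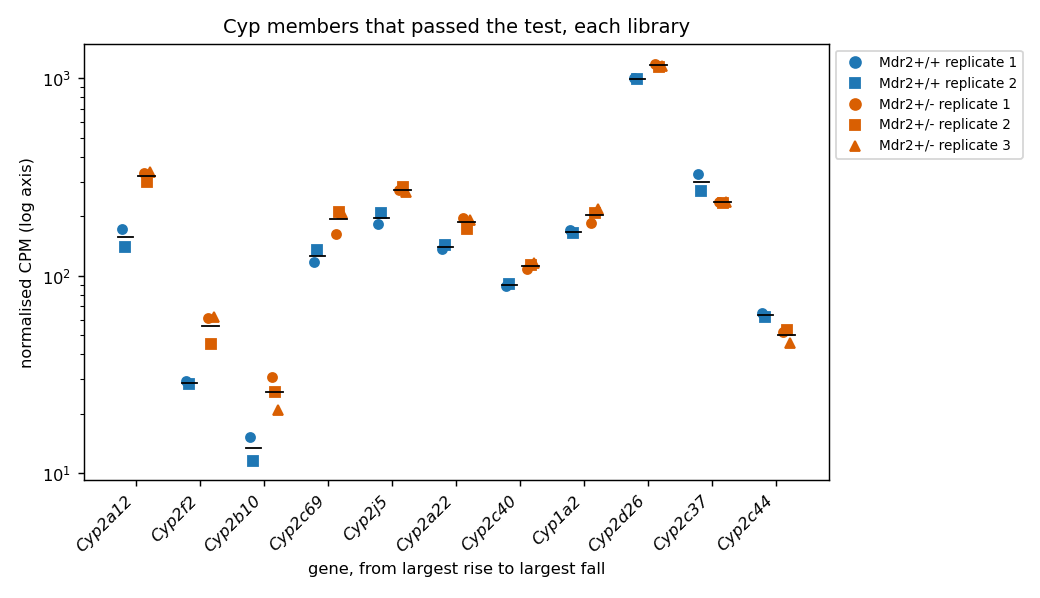
Normalised CPM (log axis) of the 11 members that passed, in each library; blue points are Mdr2+/+, orange points Mdr2+/-, marker shapes give the replicate number and black lines the group means. Cyp2a12, Cyp2f2 and Cyp2b10 show the widest gaps, and Cyp2d26 a narrow gap between tightly grouped libraries.

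The Cyp2c genes, which include epoxygenases of arachidonic acid, moved in both directions. Of 14 members 12 were tested, and 2 rose and 2 fell, against 6.63% and 5.41% of all tested genes. The subfamily sum was level, at 1279 and 1143 CPM in wild-type and 1151, 1240.0 and 1226 CPM in heterozygous libraries (ratio 0.996). The direction differed between the groups of similar copies shown above.

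Cyp2c69 and Cyp2c40 rose. Cyp2c69 went from 118 and 135 CPM to 163, 210.1 and 208 CPM (log2FC 0.62, SE 0.11, adjusted p = 0.00959; ENSMUSG00000092008, chromosome 19, 39842814 to 39886799, minus strand). Cyp2c40, known for hydroxylating arachidonic acid, went from 88.6 and 90.9 CPM to 108, 113 and 116 CPM (log2FC 0.32, SE 0.06, adjusted p = 0.0117; chromosome 19, 39767071 to 39812814, minus strand). Heterozygous replicate 1 was the lowest of its group for both, above both wild-type libraries. Cyp2c67 (93.6 and 92.6 to 104, 106 and 107 CPM) and Cyp2c68 (153 and 158 to 177, 181 and 178 CPM) also had heterozygous libraries above wild-type libraries, without passing (log2FC 0.19 and 0.20, adjusted p = 0.0677 and 0.0604). Both passed with the offset for transcript length (adjusted p = 0.0196 and 0.0176).

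Because these 4 genes share so many windows, their sum depends less on how reads were divided. It was 453 and 477 CPM in wild-type and 551, 611 and 609 CPM in heterozygous libraries, a ratio of 1.27 without overlap. Without wild-type replicate 1 both calls were lost (adjusted p = 0.0794 for Cyp2c69 and 0.0725 for Cyp2c40).

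Cyp2c37 fell. It was one of the more abundant Cyp2c genes, at 326 and 269 CPM in wild-type and 236, 235 and 237 CPM in heterozygous libraries (ENSMUSG00000042248, chromosome 19, 39992424 to 40012243, plus strand). The 3 heterozygous libraries were nearly level while the wild-type libraries differed from each other. The means were 298 ± 40.4 and 236 ± 1.22 CPM (log2FC -0.34, SE 0.08, adjusted p = 0.0287). Its copies Cyp2c50 (208 and 161 to 159, 148 and 154 CPM) and Cyp2c54 (95.3 and 74.4 to 78.1, 72.4 and 71.0 CPM) did not pass. Their log2FC was -0.27 and -0.21 (adjusted p = 0.111 and 0.208). Without wild-type replicate 2 the log2FC was -0.44 and -0.37, with replicate 1, the higher, as the only wild-type library. The sum of these 3 genes was 630.1 and 505 CPM against 473, 455 and 463 CPM, a ratio of 0.817 without overlap. The Cyp2c37 call was lost in 6 of 13 alternatives, among them the fit without wild-type replicate 1 (log2FC -0.19, adjusted p = 0.162).

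Cyp2c44, an epoxygenase gene listed as Cyp2c23 in GENCODE M21, lies apart from the other Cyp2c genes on chromosome 19 (44005022 to 44029208, minus strand) and shares no windows. It fell from 64.8 and 61.9 CPM to 52.1, 53.1 and 45.5 CPM (log2FC -0.34, SE 0.08, adjusted p = 0.0237). The wild-type libraries were close together and above all heterozygous libraries. The call was lost in 5 of 13 alternatives, with adjusted p-values from 0.00539 to 0.120 over all of them.

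In the third group, Cyp2c29, Cyp2c38 and Cyp2c39, no gene passed. Cyp2c39, a retinoic acid hydroxylase, had the most negative log2FC of any tested member (-0.72, SE 0.25), but its libraries overlapped: 23.9 and 14.97 CPM in wild-type against 7.89, 15.4 and 12.1 CPM (adjusted p = 0.0917). The log2FC was -0.33 without wild-type replicate 1 and -0.998 without wild-type replicate 2, and the gene passed in 1 of 13 alternatives, without the filter on low counts (adjusted p = 0.00280), with adjusted p-values up to 0.547 in the others. Cyp2c29, the main Cyp2c enzyme of adult mouse liver, ran from 68.7 to 91.3 CPM in wild-type and from 55.1 to 89.1 CPM in heterozygous libraries (log2FC -0.08, adjusted p = 0.807). Cyp2c55 also overlapped (log2FC -0.02, adjusted p = 0.954), and Cyp2c65 and Cyp2c66, genes of the intestine, had 0.25 counts each over all libraries.

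**Figure D3:**
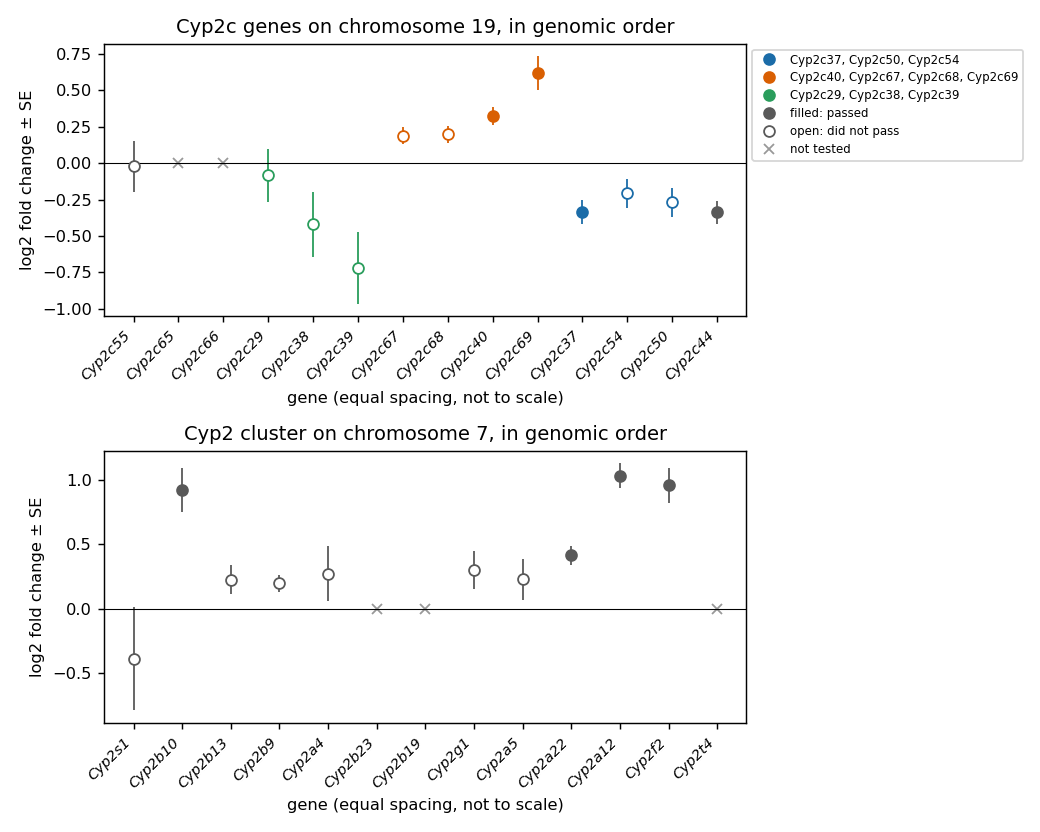
Log2 fold change with its SE (y axis) for Cyp2c genes (top) and the Cyp2 cluster of chromosome 7 (bottom), in genomic order at equal spacing; filled points passed, open points did not, and crosses mark genes with too few counts, drawn at 0 without a value. The neighbours Cyp2c67, Cyp2c68, Cyp2c40 and Cyp2c69 lie above 0, and Cyp2c37, Cyp2c54, Cyp2c50 and Cyp2c44 lie below it.

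Promoters of these Cyp2c groups were compared because fold changes of neighbouring copies differed in sign. The RefSeq table (GRCm38.p6) gave a promoter for 51 of the 58 members, and the 250 bases before the first listed start were searched on both strands for TATAAA (the box of core promoters), GCGTG (core of the Ahr response element), CAAAGTCCA (a core bound by Hnf4a), TTCNNNGAA (Stat sites), the palindromic Hnf1 site and AGGTCA (nuclear receptor half-site). Capitals mark every match. Cyp2c40 and Cyp2c69 represent the genes that were higher, Cyp2c37 and Cyp2c50 those with negative fold changes.
Cyp2c40, chr19:39812815-39813064, minus strand: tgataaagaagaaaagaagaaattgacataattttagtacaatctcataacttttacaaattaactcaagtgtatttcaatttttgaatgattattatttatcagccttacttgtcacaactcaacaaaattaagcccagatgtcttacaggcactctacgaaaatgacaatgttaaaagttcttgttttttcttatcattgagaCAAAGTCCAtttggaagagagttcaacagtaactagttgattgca
Cyp2c69, chr19:39886770-39887019, minus strand: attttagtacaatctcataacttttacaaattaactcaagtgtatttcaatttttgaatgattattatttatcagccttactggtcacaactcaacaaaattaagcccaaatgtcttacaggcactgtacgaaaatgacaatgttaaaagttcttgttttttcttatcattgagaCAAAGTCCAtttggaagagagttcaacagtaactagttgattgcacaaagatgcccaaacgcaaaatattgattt
Cyp2c37, chr19:39992174-39992423, plus strand: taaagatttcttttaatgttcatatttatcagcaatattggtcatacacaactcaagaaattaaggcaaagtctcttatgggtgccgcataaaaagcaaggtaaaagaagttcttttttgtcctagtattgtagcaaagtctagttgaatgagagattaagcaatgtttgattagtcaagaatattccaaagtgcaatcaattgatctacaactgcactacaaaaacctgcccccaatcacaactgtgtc
Cyp2c50, chr19:40089429-40089678, plus strand: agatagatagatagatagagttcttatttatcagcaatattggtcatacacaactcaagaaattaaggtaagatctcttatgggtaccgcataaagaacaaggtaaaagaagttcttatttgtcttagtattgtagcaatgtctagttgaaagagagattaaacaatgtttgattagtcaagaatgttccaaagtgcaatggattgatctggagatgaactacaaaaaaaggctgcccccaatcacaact
CAAAGTCCA began 45 bases before the start in Cyp2c40 and 75 bases before it in Cyp2c69, and was present in Cyp2c67 and Cyp2c68 too. The bases next to the motif are the same in Cyp2c40 and Cyp2c69. The distances therefore differ with where each start is listed. Neither Cyp2c37 nor Cyp2c50 had an exact match to any of the 6 motifs in this window. Cyp2c37 does hold caaagtcta, a near match to CAAAGTCCA that an exact search leaves out. Cyp2c44, which fell, and Cyp2c54 had no listed promoter and could not be compared. Among all members CAAAGTCCA was found in 9 of 51 promoters, the others being Cyp2c65, Cyp3a11, Cyp3a16, Cyp3a41a and Cyp3a41b, against 0.384% of all 32851 promoters. These copies share ancestry and are not independent, and none of the 4 Cyp3a genes with the motif passed the test. The other members that rose, Cyp2a12, Cyp2a22, Cyp2f2, Cyp2b10, Cyp2j5, Cyp1a2 and Cyp2d26, had no match to CAAAGTCCA. Of the genes printed without it, Cyp2c37 passed as lower and Cyp2c50 did not pass. TATAAA was found in 24 of 51 member promoters and 12.4% of all promoters. GCGTG was found in 8 (28.2% of all), among them Cyp1a1 and Cyp2b10 but not Cyp1a2, AGGTCA in 14 (14.0%), TTCNNNGAA in 2 (7.02%) and the Hnf1 site in 0 (0.00913%). A match describes letters and shows no binding.

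Cyp2d genes include the mouse counterparts of the human drug-metabolising enzyme CYP2D6. Cyp2d26 was the most abundant of the 8 and rose slightly, from 1006 and 988 CPM to 1184, 1145 and 1157 CPM (log2FC 0.22, SE 0.06, adjusted p = 0.0408; chromosome 15, 82790101 to 82794294, minus strand). The libraries of each group were tightly spaced. The call was lost in 7 of 13 alternatives, including every fit with a library left out (adjusted p = 0.0924 to 0.108), while the log2FC stayed between 0.18 and 0.30. The other 7 Cyp2d genes had a log2FC between -0.02 (Cyp2d10) and 0.07 (Cyp2d22) and did not pass. Cyp2d22 had 144 and 142 CPM in wild-type and 152, 149.9 and 149.5 CPM in heterozygous libraries (adjusted p = 0.447). Cyp2d10 had 280.0 and 291 CPM against 272, 289 and 281 CPM (adjusted p = 0.847), and shares 40.5% of its windows with other genes. Cyp2d9, a male-typical gene of adult liver, had 225 and 208 CPM against 253, 226 and 202 CPM, with no separation of the groups (adjusted p = 0.687).

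Cyp2j5, an epoxygenase of arachidonic acid in liver and kidney, rose from 183 and 208 CPM to 273, 282 and 265 CPM (ENSMUSG00000052520, chromosome 4, 96628773 to 96664154, minus strand). The gap between the groups was wider than the range within either. The ratio of means was 1.40 (log2FC 0.48, SE 0.07, adjusted p = 0.00424), and the call held in all 13 alternatives. Its neighbour Cyp2j6 had 41.6 and 40.9 CPM in wild-type and 48.9, 47.3 and 47.6 CPM in heterozygous libraries, close to the threshold without passing (log2FC 0.22, adjusted p = 0.0567). Cyp2j9 overlapped (log2FC 0.05, adjusted p = 0.917), and the other 4 Cyp2j genes were not tested. Their highest was Cyp2j13, at 0.396 and 0.463 CPM in wild-type and 0.196, 0.142 and 0.233 CPM in heterozygous libraries. These values came from 6 and 5.5 counts in wild-type and 2.5, 2.33 and 4 counts in heterozygous libraries. Heterozygous replicates 1 and 2 were under the floor of 3 counts, so no difference can be read from them.

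Cyp1a2, the caffeine-oxidising enzyme of pericentral hepatocytes, rose from 169.6 and 165 CPM to 184, 207 and 219 CPM (log2FC 0.28, SE 0.08, adjusted p = 0.0497; chromosome 9, 57676937 to 57683703, minus strand). Heterozygous replicate 1 was the nearest to the wild-type libraries. The call sat at the threshold and was lost in 8 of 13 alternatives (adjusted p = 0.0113 to 0.166 over all). Its neighbour Cyp1a1, induced through Ahr, was scarce, at 2.51 and 2.73 CPM in wild-type and 3.18, 4.22 and 4.39 CPM in heterozygous libraries, and did not pass (log2FC 0.62, SE 0.22, adjusted p = 0.0958). Cyp1b1, a gene of mesenchymal cells rather than hepatocytes, had 37 counts in all and was not tested.

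No Cyp3a gene passed. This subfamily holds the counterparts of human CYP3A4 and makes a large share of hepatic P450, with Cyp3a11 as the main adult form and Cyp3a16 a form of fetal and neonatal liver. Cyp3a11 had 1638 and 1848 CPM in wild-type and 1507, 1865 and 1618 CPM in heterozygous libraries (log2FC -0.07, SE 0.09, adjusted p = 0.693). Cyp3a16 had 286 and 359.9 CPM against 362, 451 and 389 CPM (log2FC 0.31, SE 0.11, adjusted p = 0.110), so that heterozygous libraries lay above wild-type libraries by a narrow margin. It passed in 2 of 13 alternatives. Replicate 2 of each genotype had the highest sum of its group, 3576 CPM in wild-type and 3871 CPM in heterozygous livers, against 3105 to 3296 CPM in the other 3 libraries. The near-identical Cyp3a41a and Cyp3a41b together had 244 and 311 CPM in wild-type and 252, 409 and 294 CPM in heterozygous libraries, with the same replicates high. Cyp3a44, a female-typical form in adults, had 511 and 587 CPM against 557, 637 and 546 CPM (adjusted p = 0.607), and Cyp3a25 had 355 and 373 CPM against 330.0, 401 and 354 CPM (adjusted p = 0.964). The groups overlapped for both. Cyp3a13, the intestinal form, had 12.5 and 11.9 CPM against 16.3, 14.0 and 14.5 CPM (adjusted p = 0.124).

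**Figure D4:**
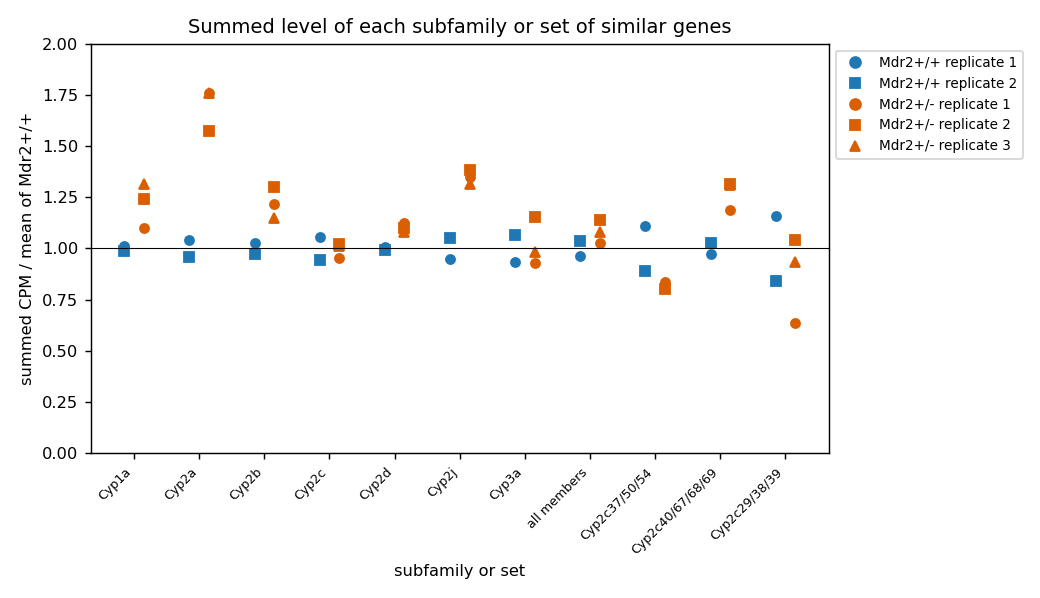
Summed normalised CPM of each subfamily with several members, of all members and of the 3 groups of similar Cyp2c genes, divided by the mean of the Mdr2+/+ libraries (y axis, starting at 0); each point is a library. Cyp2a stands highest, the Cyp2c sum straddles 1, and its groups part to either side with ratios of 0.817 and 1.27.

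Cyp2e1, the ethanol-oxidising P450 and the most abundant member, overlapped between the genotypes at 3713 and 4316 CPM in wild-type and 4014, 4514 and 4382 CPM in heterozygous libraries (log2FC 0.10, SE 0.08, adjusted p = 0.467). The 2 remaining tested genes were low: Cyp2r1, a vitamin D 25-hydroxylase, at 1.94 to 3.06 CPM (log2FC 0.25, adjusted p = 0.581), and Cyp2u1, a fatty acid hydroxylase, at 1.01 to 1.88 CPM (log2FC 0.00386, adjusted p = 0.997). The 11 untested members had means of 0 to 0.501 CPM, and Cyp2j12 and Cyp2w1 had 0 counts in every library. A difference in these could not be detected at this depth.

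Genes that serve or control the P450 enzymes were counted from lists chosen with earlier results of these data known. Of 9 tested electron partners and heme enzymes 0 passed (edgeR adjusted p). At an unadjusted p under 0.05 the count was also 0. With 12.0% of all tested genes called, 9 genes are too few to set this list apart. The reductase Por had 239 and 265 CPM in wild-type and 289, 263 and 249.6 CPM in heterozygous libraries (log2FC 0.08, adjusted p = 0.544), and Alas1, which starts heme synthesis, had a log2FC of 0.01 (adjusted p = 0.983).

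Against 6.63% higher and 5.41% lower over all tested genes, 6 of 22 tested receptors and transcription factors rose and 0 fell (median log2FC 0.18). They were Rxra, the common partner of nuclear receptors (195 and 209 to 277, 270.0 and 268 CPM, log2FC 0.43, adjusted p = 0.00384), the fatty acid receptor Ppara (log2FC 0.86), the growth hormone receptor Ghr (log2FC 0.43), the glucocorticoid receptor Nr3c1 (log2FC 0.35), the Ahr partner Arnt (log2FC 0.32) and Stat5b, which relays growth hormone (log2FC 0.34). The xenobiotic receptors, named here for their role, did not pass. Nr1i3 had 85.6 and 91.7 CPM against 103, 79.5 and 83.0 CPM (adjusted p = 0.992), Nr1i2 had a log2FC of 0.19 (adjusted p = 0.291) and Ahr one of -0.07 (adjusted p = 0.609).

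Among 28 other oxidising and hydrolysing enzymes 7 rose and 2 fell (median log2FC 0.08), against 6.63% and 5.41% of all tested genes. The carboxylesterase Ces3b rose from 16.1 and 29.5 CPM to 60.3, 76.3 and 70.0 CPM (log2FC 1.62, adjusted p = 0.00164), and the related Ces3a rose with a log2FC of 1.48 (adjusted p = 0.00245). The flavin monooxygenase Fmo5 also rose (log2FC 0.47, adjusted p = 0.00332), and the microsomal epoxide hydrolase Ephx1 fell (log2FC -0.28, adjusted p = 0.0266).

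Zonation genes other than Cyp moved beside these. Over all tested genes the shares were 6.63% higher and 5.41% lower. Of 16 tested periportal genes 7 rose and 0 fell (median log2FC 0.30), including the glutaminase Gls2 (log2FC 0.85) and the urea cycle enzyme Cps1 (log2FC 0.87). Of 24 pericentral genes 0 rose and 5 fell (median log2FC -0.17), including the Wnt pathway genes Lgr5 (log2FC -0.82) and Axin2 (log2FC -0.68) and glutamine synthetase, Glul (463 and 479 to 304, 359 and 381 CPM, log2FC -0.44). The rest did not pass, among them Znrf3 (log2FC -0.26) and Notum (log2FC -0.16). Slc1a2 (log2FC 0.36), Slco1b2 (log2FC 0.23) and Oat (log2FC 0.21) had positive values. The summed level of the pericentral list overlapped, at 3513 to 4001 CPM in wild-type and 3448 to 3795 CPM in heterozygous libraries. Cyp2f2, known as periportal, was higher, while 9 of the 16 periportal genes did not pass, among them Pck1 (log2FC -0.13) and Arg1 (log2FC 0.01). Among members known as pericentral, Cyp2c37 was lower, Cyp1a2 was higher at the threshold (adjusted p = 0.0497) and Cyp2e1 did not pass. The Cyp2c37 and Cyp1a2 calls held in 7 and 5 of 13 alternatives, and other pericentral members are not counted here. Of 14 tested sex-biased liver genes outside Cyp 8 rose and 1 fell (median log2FC 0.44), and the list went both ways by sex: the female-typical A1bg (log2FC 1.80) and the male-typical Selenbp2 (log2FC 0.53) rose, and the male-typical Hsd3b5 fell (log2FC -2.42). Serpina3k (log2FC 0.77) and Ugt2b1 (log2FC 0.48) also rose. Without heterozygous replicate 1, the library with Y-linked expression, 8 members were higher and 1 lower, all among the 11, with Cyp2c37 (adjusted p = 0.0614) and Cyp2d26 (adjusted p = 0.0935) no longer passing.

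**Figure D5:**
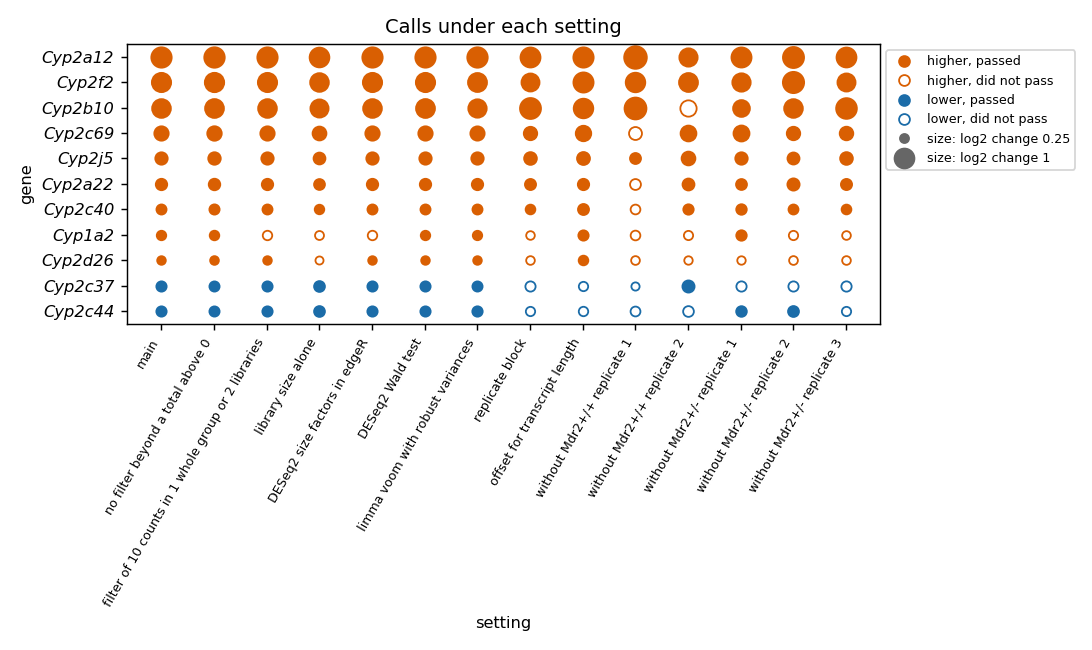
Calls of the 11 members (y axis) in the main fit and the 13 alternatives (x axis); orange is higher, blue lower, filled points passed at an adjusted p of 0.05, open points did not, and point size grows with the absolute log2 fold change. Cyp2a12, Cyp2f2 and Cyp2j5 are filled throughout, and Cyp1a2, Cyp2d26, Cyp2c37 and Cyp2c44 have the most open points.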

How the data were processed

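RNA libraries had been made with the TruSeq kit and sequenced on a HiSeq instrument, per the labels' protocols. TopHat and the mouse build mm10 are named in the submitters' processing notes. The counting tool, its strand setting, the annotation and all versions were not given in the sources used here. The authors deposited estimated counts per Ensembl gene, a file for each library, not scaled to depth or length. Of 56 members with a value above 0, 4 had whole numbers (within 0.001) in every library.

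Estimated counts were rounded, filtered by filterByExpr (minimum count 10), scaled by TMM and tested by glmQLFTest in edgeR 4.0.16 (R 4.3.3, two-sided, no covariate, Benjamini-Hochberg over 13959 genes, threshold 0.05). Each SE was derived as |log2FC| over the root of the F statistic. Alternatives used DESeq2 1.42.0 and limma 3.58.1. The procedure was tested on simulated data. No libraries within a genotype agreed within sampling noise (chi-square per degree of freedom 5.30 to 8.86). GENCODE M21 gave coordinates and lengths, by identifier for 55 members and by symbol for 3.

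Members and lists were chosen with earlier results of these data known. Named were all members that passed and, per subfamily, the most abundant member and the tested one with the largest fold change that did not pass, and up to 4 genes per list by p-value. Others were named after their values were seen, and a gene of the lists is not reported here.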

Additional observations from a re-analysis of the deposited data

How the results depend on the processing

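The 9 higher members became 10 without the filter, 8 with a 10-count filter, 7 by library size alone, 8 with DESeq2 size factors, 9 in DESeq2, 10 in limma and 12 with the offset for transcript length, and 4 to 8 with a library left out. The lowest count, 4, came without wild-type replicate 1. The 2 lower members became 4 without the filter and 0 with the length offset, and 0 to 3 with a library left out: 0 without wild-type replicate 1 or heterozygous replicate 3. The replicate block gave 8 higher, 7 of them among the 9, and 0 lower. Replicate numbers do not show paired libraries, since same-numbered libraries correlated at 0.0304 and 0.0286 in their deviations. Fold changes of genes that did not pass changed sign. With a library left out, log2FC ran from -0.00833 to 0.21 for Cyp2e1, -0.84 to 0.13 for Cyp2s1, -0.32 to 0.54 for Cyp2u1 and -0.16 to 0.024 for Cyp3a11. Cyp2u1 was also negative by library size alone (-0.036) and with the length offset (-0.0338). The causes were not tested. Over all genes, 925 higher and 755 lower calls became 1251 and 926 without the filter, 704 and 936 by library size alone, 671 and 541 in DESeq2 and 730 and 547 with the block. With a library left out, 345 to 670 were higher and 352 to 504 lower, lowest without wild-type replicate 1. Library size alone moved the median of all genes to -0.04. Depth limits the 11 untested members.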
